A study of Mus musculus with 13 samples.

Results

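The polyol pathway and fructose metabolism genes examined here are 6 in number, namely Akr1b3, Sord, Slc2a5, Khk, Akr1b7 and Akr1b8, out of 42416 gene identifiers counted in interscapular brown adipose tissue (iBAT). They were chosen by name, by matching each Ensembl identifier to its mouse symbol. Sord was picked because its level was lower in the libraries labelled iFAXLKO, so its difference between the groups is given as a description with no test. Bulk RNA sequencing gave 8 libraries labelled iFAXLKO, from mice homozygous for an Axl gene flanked by loxP sites that carry the tamoxifen-inducible Adipoq-CreERT2 transgene, and 5 libraries labelled WT, from mice with the same floxed Axl and no Cre. Both groups received tamoxifen at intervals of 3 weeks and high-fat diet (HFD) at room temperature. The study describes female mice with WT littermates, and the labels give neither strain nor age. Because Adipoq drives the transgene, recombination is aimed at adipocytes and not at the other cells of the depot. Tamoxifen and the floxed allele are common to all 13 libraries, whereas the Cre transgene itself is not.

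The polyol pathway turns glucose into fructose without phosphorylating it. Aldose reductase (Akr1b3) reduces glucose to sorbitol with NADPH, and sorbitol dehydrogenase (Sord) oxidises sorbitol to fructose with NAD+. Fructose also enters cells through the transporter GLUT5 (Slc2a5), and ketohexokinase (Khk) phosphorylates it to fructose 1-phosphate. Akr1b7 and Akr1b8 encode relatives of aldose reductase that reduce a range of aldehydes, including lipid aldehydes, and Akr1b7 is known from the adrenal gland, the vas deferens and fat. In brown fat, glucose is taken up in part through the insulin-responsive transporter GLUT4 and is used for combustion and for the synthesis of fatty acids.

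Axl itself did not fall in the mice labelled iFAXLKO. Its level, in counts per M counts of the library (CPM, M as in Mb), was 33.1 ± 6.16 CPM in these (SD, n = 8) and 27.8 ± 3.83 CPM in WT (SD, n = 5). On the log2 scale it was 0.25 higher (SE 0.13) and missed the limit, at an adjusted p of 0.699 (edgeR). Groups are therefore called by their labels, and every direction rests on those labels. Other genes did set the labels apart, with ranges that did not overlap. Adipoq, the gene that drives the transgene, averaged 1120 CPM in the libraries labelled iFAXLKO and 708 CPM in WT (adjusted p 0.0118, edgeR). B630019A10Rik, the gene with the smallest p, averaged 35.1 and 0.098 CPM. How these differences arose was not tested. The study blotted AXL protein in the mature fraction of inguinal white fat, not in iBAT. The libraries held between 22.44 and 32.6 M counts, and 13360 genes had more than 1 CPM in at least 5 libraries and were tested. Of these, 17 passed an adjusted p under 0.05, which is 0.127%, with 13 higher and 4 lower (0.0299%). Brown adipocyte markers summed to between 16430 and 26930 CPM in every library, and 10 of 10 were tested. Skeletal muscle markers, of which 12 of 12 were tested, summed to between 2.79 and 4579 CPM in the libraries labelled iFAXLKO and to between 18.7 and 3118 CPM in WT. Fibroblast markers, of which 10 of 10 were tested, summed to between 543 and 1190 CPM in the libraries labelled iFAXLKO (median 700) and to between 391 and 698 CPM in WT (median 476). Macrophage markers (8 of 8 tested) summed to between 105 and 203 CPM and to between 90.1 and 127 CPM, respectively. Liver markers were close to 0, at 1.09 to 3.83 CPM in sum, with Ttr and Tat at no more than 3 counts in any library.

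The AKR1B genes lie side by side on chromosome 6 and are close in sequence, which bears on how reads can be told apart between them. Positions are on GRCm38 with the GENCODE M21 annotation. The start of the coding sequence of the 4 genes is shown to display this likeness, with the bases that differ from Akr1b3 in capitals. Each stretch holds the first 90 coding bases, 5′ to 3′ on the strand of its gene, joined over 2 exons. It spans chr6:34312784-34317405 on the minus strand for Akr1b3, and on the plus strand chr6:34412410-34415343 for Akr1b7, chr6:34354231-34356279 for Akr1b8 and chr6:34384342-34387695 for Akr1b10, a further relative between them that is not one of the 6 genes.
Akr1b3: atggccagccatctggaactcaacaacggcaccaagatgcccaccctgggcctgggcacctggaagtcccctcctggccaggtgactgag
Akr1b7: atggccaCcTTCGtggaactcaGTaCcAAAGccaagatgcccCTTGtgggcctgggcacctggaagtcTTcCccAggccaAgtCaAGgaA
Akr1b8: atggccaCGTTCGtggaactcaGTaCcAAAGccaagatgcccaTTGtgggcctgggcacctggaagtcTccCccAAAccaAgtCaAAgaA
Akr1b10: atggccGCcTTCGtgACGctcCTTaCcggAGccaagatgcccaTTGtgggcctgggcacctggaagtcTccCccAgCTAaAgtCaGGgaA
Within these bases, Akr1b7, Akr1b8 and Akr1b10 differ from Akr1b3 at 25, 26 and 29 positions. Over the 951 coding bases of each gene, the identity of Akr1b3 with the other genes was between 71.7 and 72.5%, and no run of identical bases was longer than 24. Akr1b7, Akr1b8 and Akr1b10 were closer to each other, with 84.9% identity between Akr1b7 and Akr1b8 and 89.3% between Akr1b7 and Akr1b10. The longest run shared by Akr1b8 and Akr1b10 was 80 bases. Of all 50-base words in the exons, 2.9% of those of Akr1b8 and 15.83% of those of Akr1b7 also occur in another gene. For Akr1b8 most of these were shared with Akr1b10 (2.14%). For Akr1b7 most were shared with the pseudogene Gm13857 (13.31%), and 1.14% with Akr1b10.

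The sequence of Sord is shared with a processed pseudogene, Gm6652, on chromosome 1. The first 90 coding bases are shown because this likeness limits which reads can be assigned to Sord, with the base that differs in capitals. They span chr2:122234893-122246505 on the plus strand for Sord, over 2 exons, and chr1:153620584-153620673 on the minus strand for Gm6652, and the sequences are read 5′ to 3′ on those strands.
Sord: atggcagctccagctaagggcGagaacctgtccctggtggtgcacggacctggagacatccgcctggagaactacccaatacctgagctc
Gm6652: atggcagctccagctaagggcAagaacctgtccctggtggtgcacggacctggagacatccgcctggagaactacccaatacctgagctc
The pseudogene matched the Sord transcript from base 145, the first coding base, to base 1213, with 1063 identical bases, 6 mismatches and 1 gap (99.3% identity). The shared words amounted to 31.26% of all 50-base words of Sord, that is 720 of 2303. A read that falls within such a word cannot be placed by its sequence alone. The pseudogene is not among the identifiers counted, so it has no counts to compare with those of Sord. Khk and Slc2a5 shared no such word with another gene. For Akr1b3 the share was 13.58% (1169 of 8610 words), mostly with Gm38056 on chromosome 1 (12.81%). The processed pseudogenes Gm6644, Gm6736 and Gm12138, not among the identifiers counted, shared 752, 654 and 547 words with it. The words of Akr1b3 come from 8384 annotated exon bases, of which the basic transcripts hold 1387. Its share is thus not comparable with that of Sord, and the share within the basic transcripts was not computed.

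Akr1b3 (ENSMUSG00000001642, chr6:34302434-34317478, minus strand), the gene of the first step, had 70.0, 91.0, 60.1, 55.2 and 68.9 CPM in WT 1 to 5, and in the libraries labelled iFAXLKO between 50.6 and 73.5 CPM with a median of 59.8 CPM. The groups overlapped, although 7 of 8 libraries labelled iFAXLKO lay below the WT mean. The means were 60.2 ± 8.70 CPM (SD, n = 8) and 69.1 ± 13.7 CPM (SD, n = 5). The log2 fold change was -0.20 (SE 0.12, 95% interval -0.46 to 0.06) and did not pass the test (adjusted p 0.753, edgeR). The exact permutation test over the libraries, 2-sided with 1287 arrangements, whose smallest possible p is 0.000777, gave p 0.182 for the difference of mean log2 CPM and 0.303 after adjustment over the 5 genes other than Sord. The labels carry a library number but name no batch, and the numbers were divided here into a lower range, with 4 libraries labelled iFAXLKO and 2 WT, and an upper range, with 4 and 3. Within the lower range the difference was -0.49 and within the upper range 0.03, so Akr1b3 was lower in the former range and not in the latter. Without WT 2, the highest of all libraries, the fold change was -0.08.

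Sord (ENSMUSG00000027227, chr2:122234749-122265340, plus strand, 9 exons), the gene of the second step, had 78.1, 90.7, 89.6, 80.3 and 84.1 CPM in WT 1 to 5. In the libraries labelled iFAXLKO its level ran from 56.5 to 67.5 CPM, with a median of 63.0 CPM. All 8 libraries labelled iFAXLKO lay below all 5 WT libraries, with a gap of 10.6 CPM between the nearest. The ranges of the groups were apart in the same direction for 26 of the 13360 genes tested (0.195%), and in either direction for 58 (0.434%). Sord was chosen for its lower level, which favours this pattern. The means were 62.3 ± 4.18 CPM (SD, n = 8) and 84.6 ± 5.56 CPM (SD, n = 5), that is 73.7% of the WT level. The log2 fold change was -0.44 (SE 0.07). The spread within each group was small, with a coefficient of variation of 6.71% and 6.58%, against 14.5% and 19.9% for Akr1b3. A small spread helps to set the ranges of groups apart, so the choice of Sord may have favoured it. The contrast with Akr1b3, not chosen in this way, is a description. The plot of each gene by library shows both groups of Sord as narrow bands. In bulk tissue, fewer cells of a type and less RNA per cell cannot be told apart.

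**Figure D1:**
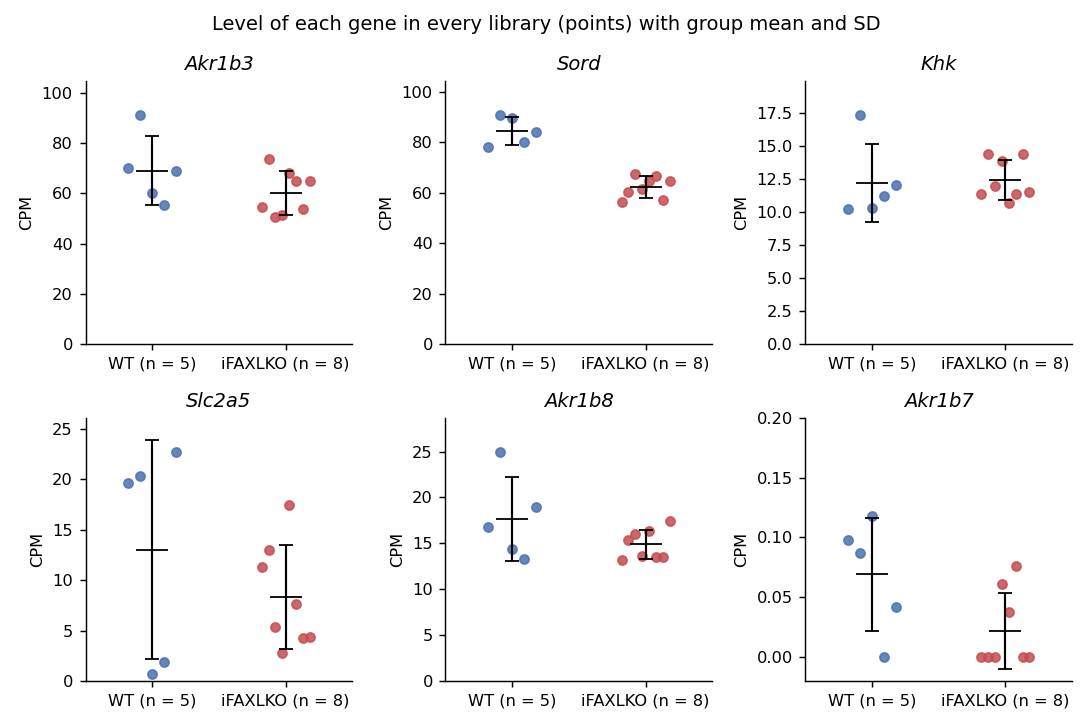
Level of the 6 genes in CPM (linear axis) in each of the 5 WT and 8 iFAXLKO libraries, drawn as points, with the group mean and SD as lines. Sord is the only panel of the 6 in which the groups do not overlap, while Slc2a5 in WT spans 0.647 to 22.7 CPM.

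For Sord the difference was -0.46 in the lower and -0.42 in the upper range of the library numbers, and leaving out each library in turn gave fold changes between -0.47 and -0.40. Because Sord was chosen for its lower level in the libraries labelled iFAXLKO, the direction of these values was fixed by the choice. A large size was favoured by it too, and the fits without 1 library share most of their libraries. These values are a description. The fibroblast markers, which were higher in the libraries labelled iFAXLKO, moved with the group. With the fibroblast score as a covariate the fold change of Sord was -0.33, and with the skeletal muscle score it was -0.45. Once group means were subtracted, Sord and the fibroblast score had a Pearson r of -0.52 (p 0.0717, permutation test, 2-sided) and a Spearman rho of -0.53 (p 0.0631) over 13 libraries. This r was -0.08 within the lower range of library numbers (n = 6), -0.85 within the upper range (n = 7) and -0.32 once the 2 farthest libraries on the score were left out. The relation with the brown adipocyte score was positive (r 0.44, p 0.134, and rho 0.51, p 0.0819, permutation test), at r 0.46 and 0.55 in the ranges and 0.14 without the 2 farthest libraries. That with the skeletal muscle score was -0.23 (p 0.459, rho -0.22, p 0.474, permutation test), at r -0.61 and -0.05 in the ranges and -0.23 without the 2 farthest libraries. Each of the 3 relations missed the limit after adjustment over the 6 relations computed, with adjusted p-values for r of 0.369, 0.369 and 0.551 and for rho of 0.246, 0.246 and 0.779, in the order given.

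Variation between mice within a group did not run in parallel along the pathway at a level that passed the test. With group means subtracted, Sord and Akr1b3 had r 0.30 (p 0.319) and rho 0.18 (p 0.553, permutation test) over 13 libraries. Leaving out the 2 farthest libraries brought r to 0.05, and the values within the ranges were 0.13 and 0.70. Sord and Khk had r 0.05 (p 0.877) and rho 0.09 (p 0.779, permutation test), with 0.59 and -0.84 in the ranges and -0.27 without the 2 farthest libraries. Akr1b3 and Khk had r 0.39 (p 0.185) and rho 0.14 (p 0.655, permutation test), with 0.69 and -0.51 in the ranges and -0.06 without the 2 farthest libraries. After adjustment the p-values for r were 0.479, 0.877 and 0.369, and that for rho was 0.779 in each case. The difference between Sord and Akr1b3 within a library, as log2 CPM of Sord minus that of Akr1b3, was 0.06 ± 0.21 (SD, n = 8) in the libraries labelled iFAXLKO and 0.31 ± 0.25 (SD, n = 5) in WT. Only 3 of 8 libraries labelled iFAXLKO lay below all WT libraries in this measure.

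Slc2a5 (ENSMUSG00000028976, chr4:150119283-150144169, plus strand), the fructose transporter gene, was the most variable of the 5 genes tested. Its level was 19.6, 20.3, 0.647, 1.87 and 22.7 CPM in WT 1 to 5, so that 3 WT libraries were high and 2 were low. In the libraries labelled iFAXLKO it ran from 2.80 to 17.5 CPM with a median of 6.51 CPM, inside the WT range. The highest library was 35.1-fold above the lowest, on 22 to 600 counts, and the coefficient of variation was 62.3% and 83.0%. The means were 8.30 ± 5.17 CPM (SD, n = 8) and 13.04 ± 10.8 CPM (SD, n = 5). The log2 fold change was -0.65 (SE 0.73, 95% interval -2.24 to 0.94, adjusted p 0.906, edgeR), whereas the mean log2 CPM of the groups differed by 0.09 (exact permutation p 0.922, both before and after adjustment). The sign thus depended on how the libraries were averaged. Within the ranges of library numbers the difference of mean log2 CPM was -1.53 and 1.18. Without WT 5 the fold change was -0.35 and without WT 2 it was -0.43, whereas it was -0.94 without WT 3 and -0.93 without WT 4.

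The genes whose levels followed Slc2a5 most closely over the 13 libraries, chosen after its values were seen, were Nsdhl, Pgd, Adprhl1, Slc25a1 and Atp4b, with r between 0.95 and 0.96 on log2 CPM after subtraction of the group means. Pgd, an NADPH-producing enzyme of the pentose phosphate pathway, had 488, 605, 232, 257 and 681 CPM in WT 1 to 5, low in the same 2 libraries as Slc2a5. In the libraries labelled iFAXLKO it lay between 290 and 516 CPM. Without WT 3 and WT 5, the libraries farthest from their group mean of Slc2a5 on the log2 scale, r was 0.94, and without WT 3 and WT 4, the libraries with the lowest Slc2a5, it was 0.93. A list of 14 genes of fatty acid synthesis, also chosen after these values were seen, had a median r of 0.89 with Slc2a5, and 12 of 14 were over 0.7, where all genes had a median of 0.01 and 2.53% over 0.7. The list holds Pgd and Slc25a1, which are among the 5 closest genes just named, and without them the median of the other 12 was 0.87. Since the list was chosen with these values in view, the contrast with all genes is a description. Acly, which makes cytosolic acetyl-CoA from citrate, had r 0.95, and Fasn, the fatty acid synthase, had r 0.91. Mlxipl, which encodes the carbohydrate-sensing factor ChREBP, had r 0.47, and Srebf1, which encodes the lipogenic factor SREBP1, had the lowest value at -0.06. None of these 14 genes passed the test between the groups, where 0.127% of all genes did. The libraries are the same for all these values, so r describes a shared pattern between mice and is given with no p.

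**Figure D2:**
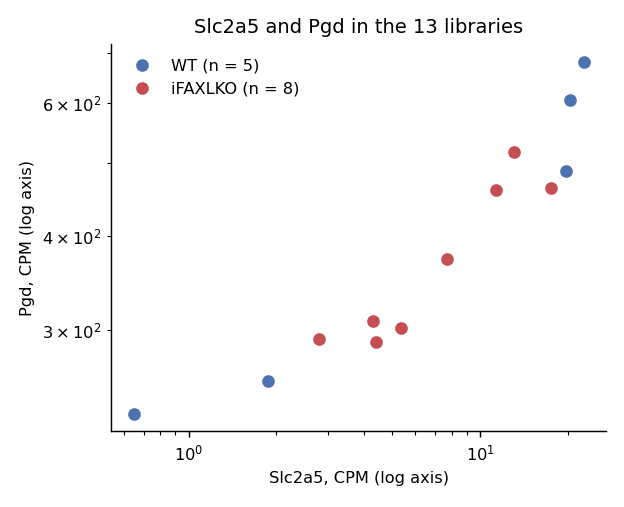
Level of Pgd against that of Slc2a5 in the 13 libraries, both in CPM on log axes, coloured by group, 1 point per library. WT 3 and WT 4 lie at the lower left and the other WT libraries at the upper right, with the 8 iFAXLKO libraries between them on the axis of Slc2a5.

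Khk (ENSMUSG00000029162, chr5:30921431-30931248, plus strand), which takes fructose on to fructose 1-phosphate, had 10.2, 17.3, 10.3, 11.2 and 12.1 CPM in WT 1 to 5 and between 10.7 and 14.4 CPM in the libraries labelled iFAXLKO, with a median of 11.8 CPM. The groups overlapped almost fully. The means were 12.5 ± 1.53 CPM (SD, n = 8) and 12.2 ± 2.95 CPM (SD, n = 5), with a log2 fold change of 0.03 (SE 0.13, 95% interval -0.25 to 0.30, adjusted p 0.985, edgeR, and exact permutation p 0.756, adjusted 0.922). The sign turned in 5 of 13 fits without 1 library, over a range of -0.03 to 0.18. In this fit the interval leaves out a decrease as large as the value of Sord, a size that the choice of Sord favoured. With the fibroblast score as a covariate the fold change of Khk was -0.24, so the statement holds for the fit by group only. The transcripts for the A and C forms of ketohexokinase, which differ by an exchanged exon, are counted as 1 gene in these files.

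Akr1b8 (ENSMUSG00000029762, chr6:34354119-34368463, plus strand) had 16.7, 24.9, 14.4, 13.3 and 18.9 CPM in WT 1 to 5, and between 13.2 and 17.4 CPM with a median of 14.5 CPM in the libraries labelled iFAXLKO. All 8 lay below the WT mean, and yet the groups overlapped. The means were 14.9 ± 1.60 CPM (SD, n = 8) and 17.7 ± 4.63 CPM (SD, n = 5), for a log2 fold change of -0.24 (SE 0.13, 95% interval -0.53 to 0.04, adjusted p 0.717, edgeR, and exact permutation p 0.148, adjusted 0.303). Within the ranges of library numbers the difference was -0.49 and -0.02. Without WT 2 the fold change was -0.09. Akr1b7 (ENSMUSG00000052131, chr6:34412334-34423142, plus strand) was at or near 0, with at most 4 counts in any library and no more than 0.118 CPM. It was not tested in edgeR, no fold is given, and the exact permutation p was 0.0777 (adjusted 0.303). Its exons share bases with Gm13857 on the opposite strand, and the strand setting of the counting is not given in the sources used here.

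Akr1b10 (ENSMUSG00000061758, chr6:34384218-34396950, plus strand), the relative between Akr1b8 and Akr1b7, was the AKR1B gene with the highest level and was one of a list of other aldo-keto and xylulose route enzymes. It had 123, 177, 121, 114 and 138 CPM in WT 1 to 5 and between 74.4 and 130.5 CPM in the libraries labelled iFAXLKO, with a median of 113 CPM, and the groups overlapped. Its means were 110.0 ± 16.1 CPM (SD, n = 8) and 134 ± 25.3 CPM (SD, n = 5). On the log2 scale it differed by -0.29 (SE 0.13), at an unadjusted p of 0.0358 and an adjusted p of 0.628 in edgeR, and 8 of 8 libraries labelled iFAXLKO lay below the WT mean. Without WT 2 the difference in Akr1b10 was -0.17, and with the fibroblast score as a covariate it was -0.08. WT 2 was the highest of the 13 libraries for Akr1b3, Akr1b8, Akr1b10, Khk and Sord alike, and also had the highest sum of brown adipocyte markers. In all, 0 of the 4 tested genes other than Sord passed the adjusted limit, and 0 had an unadjusted p under 0.05, compared with 7.38% of all genes tested.

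Levels were compared between genes as CPM per kb of exon, over the exons of the basic transcripts of the annotation and over all 13 libraries. Akr1b10 had 87.1 ± 16.6, Akr1b3 had 45.9 ± 8.13, Sord had 30.1 ± 5.16, Akr1b8 had 11.7 ± 2.40, Khk had 7.20 ± 1.203 and Slc2a5 had 3.21 ± 2.46 CPM per kb (SD, n = 13 each), and Akr1b7 followed at 0.031. Each of these genes was above the next in 13 of 13 libraries, apart from Khk and Slc2a5, where it held in 11 of 13. Over libraries, the ranges were apart only between Sord and Akr1b8 and between Slc2a5 and Akr1b7, and those of the other neighbours overlapped. The places of Akr1b3 and Akr1b10 depended on the exons counted. With all 8384 annotated exon bases instead of 1387, Akr1b3 had 7.59 CPM per kb and stood below Sord, at 30.1, and Akr1b8, at 10.6. Akr1b10 had 33.8 CPM per kb with all its exon bases, close to Sord.

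**Figure D3:**
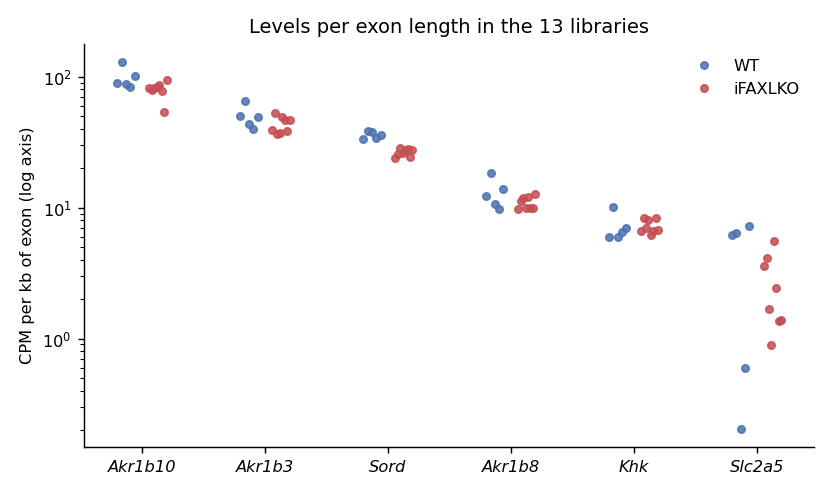
Level per kb of exon of the basic transcripts (CPM per kb, log axis) in the 13 libraries, with WT and iFAXLKO libraries in separate colours, for 6 genes ordered by mean. The levels fall from Akr1b10 to Slc2a5, the gene with the widest scatter, and Akr1b7, at or near 0, is left out.

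Of the surrounding metabolism, 7 lists with 47 genes were followed, and 36 of these genes were tested. None passed the adjusted limit in either direction, where 0.127% of all genes tested did, and 4 of 36 had an unadjusted p under 0.05, compared with 7.38% of all genes tested. The median log2 fold change of the 36 genes was -0.058, with 24 negative and 12 positive values, compared with -0.012 over all genes tested. Of all 13360 genes tested, 7158 were negative and 6202 positive. The plot of fold changes by list shows that most intervals include 0.

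**Figure D4:**
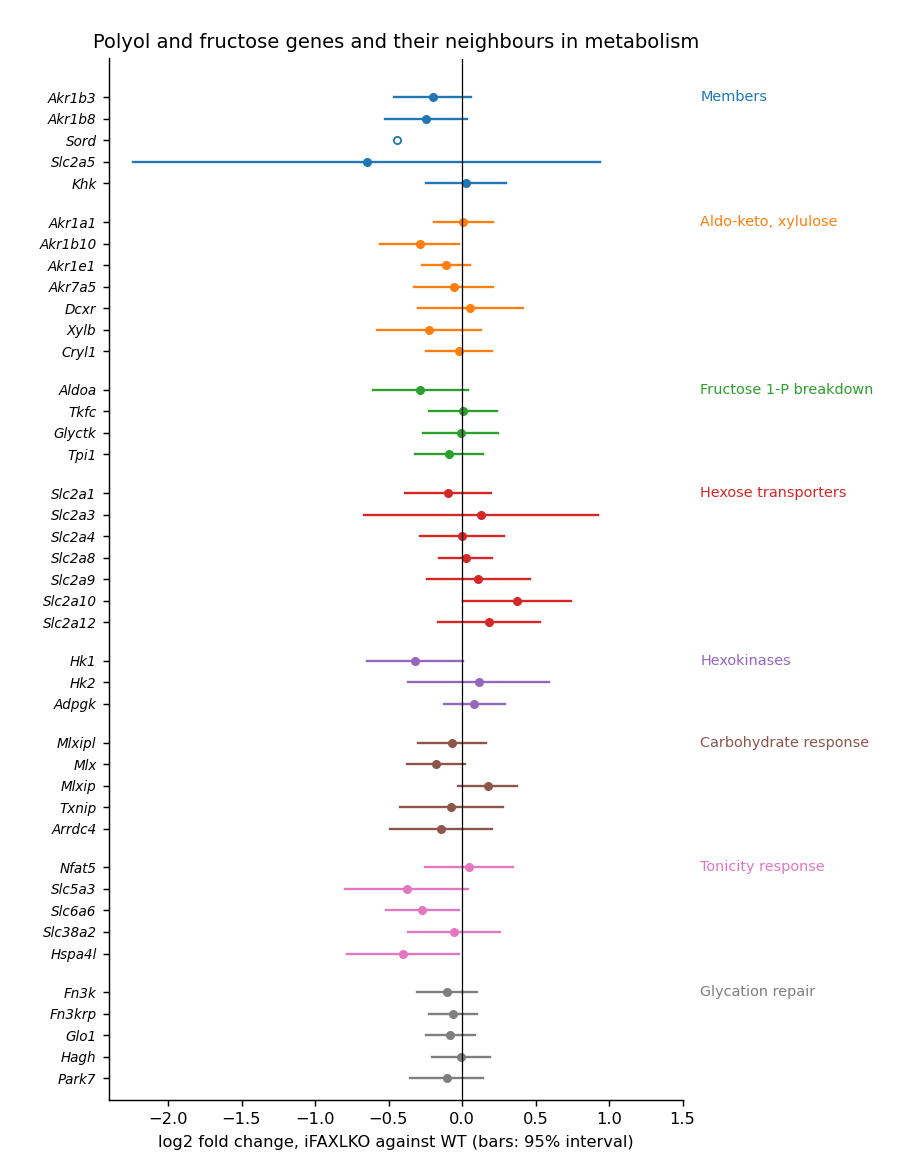
Log2 fold change of the libraries labelled iFAXLKO against WT (horizontal axis) with its 95% interval for the 5 tested genes of the pathway and for the 36 tested genes of the 7 lists, coloured by list. Sord, the open circle without an interval, was chosen for its value. Slc2a5 has the widest interval, from -2.24 to 0.94.

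The further breakdown of fructose 1-phosphate needs an aldolase, triokinase (Tkfc) and triose-phosphate isomerase (Tpi1). Of 6 such genes 4 were tested, and the median was -0.048. Aldoc averaged 1.03 and 0.635 CPM in the libraries labelled iFAXLKO and WT, under the filter. Aldoa, the ubiquitous aldolase, had 3612 ± 703 CPM (SD, n = 8) and 4395 ± 973 CPM (SD, n = 5). They differed by -0.28 on the log2 scale (SE 0.15), with an adjusted p of 0.717 (edgeR), and by -0.16 without WT 2. Tkfc, at 13.6 CPM in both groups, had a fold change of 0.0054, and that of Tpi1 was -0.09 (adjusted p 0.915).

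Of 10 other facilitative hexose transporter genes 7 were tested, with a median log2 fold change of 0.112. Slc2a4, the gene of GLUT4, was the most abundant of these, at the same mean of 420 CPM in both groups (SD 49.2, n = 8, and SD 99.5, n = 5). Slc2a2, the gene of GLUT2, which also carries fructose, had at most 2 counts in any library. Slc2a10 had 1.05 ± 0.149 CPM (SD, n = 8) in the libraries labelled iFAXLKO and 0.808 ± 0.152 CPM (SD, n = 5) in WT, 0.38 higher on the log2 scale (SE 0.17) at an adjusted p of 0.658 (edgeR), and Slc2a12 had a value of 0.18 (adjusted p 0.872).

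Among the 7 genes for hexokinases and the glucokinase regulator, 3 were tested, and their median log2 fold change was 0.084. Hk1 had 76.2 ± 17.0 CPM (SD, n = 8) and 95.1 ± 11.8 CPM (SD, n = 5), and 8 of 8 libraries labelled iFAXLKO lay below the WT mean. Its log2 fold change was -0.32 (SE 0.15, adjusted p 0.685, edgeR), and that of Adpgk, an ADP-dependent glucokinase, was 0.08 (adjusted p 0.907). Hk2, the insulin-responsive hexokinase, was the most abundant, with 238 ± 76.8 CPM (SD, n = 8) in the libraries labelled iFAXLKO and 220.1 ± 56.5 CPM (SD, n = 5) in WT, and the log2 difference was 0.11 (SE 0.22, adjusted p 0.960).

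Carbohydrate-response factors and their targets were 6 genes, of which 5 were tested, with 4 negative values and a median of -0.074. Mlx, the partner of ChREBP, had a log2 fold change of -0.17 (SE 0.09) and Mlxip, which encodes the ChREBP paralogue MondoA, one of 0.17 (SE 0.10), with adjusted p-values of 0.717 and 0.724 (edgeR). Mlxipl itself had 511 ± 72.4 CPM (SD, n = 8) and 535 ± 65.3 CPM (SD, n = 5). Pklr, the liver pyruvate kinase gene, was at 0 in all 13 libraries, which allows up to 3 counts in each.

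Aldose reductase is one of the genes that hypertonic stress induces through NFAT5, and sorbitol is an organic osmolyte. Of 6 genes of this response 5 were tested, with 4 negative values and a median log2 fold change of -0.269. Slc6a6, the taurine transporter gene, had 180.2 ± 23.2 CPM (SD, n = 8) and 217 ± 38.7 CPM (SD, n = 5), a log2 difference of -0.27 (SE 0.12) with an adjusted p of 0.632 (edgeR). Hspa4l, which encodes an osmotic stress chaperone, had 80.0 ± 15.4 CPM (SD, n = 8) and 106 ± 37.8 CPM (SD, n = 5), a log2 difference of -0.40 (SE 0.18) with an adjusted p of 0.641. Without WT 5 this difference in Hspa4l was -0.17, and with the fibroblast score as a covariate it was -0.023. Slc5a3, the myo-inositol transporter gene, had -0.38 (SE 0.20, adjusted p 0.709), and Nfat5 itself 0.05 (SE 0.14, adjusted p 0.975). For Slc6a6, Hspa4l and Slc5a3, 7 of 8 libraries labelled iFAXLKO lay below the WT mean. Slc6a6 and Hspa4l were among those with an unadjusted p under 0.05, at 0.0364 and 0.0394 (edgeR). The difference in Slc6a6 lay between -0.37 and -0.20 without 1 library, and was -0.19 with the fibroblast score as a covariate.

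The other 2 lists were the aldo-keto and xylulose route enzymes and the repair of fructosamine and methylglyoxal damage. In the former 7 of 7 genes were tested, 5 were negative, and the median was -0.056. Apart from Akr1b10, the gene with the smallest p was Akr1e1, at -0.11 on the log2 scale (SE 0.08, adjusted p 0.809, edgeR). In the latter 5 of 5 were tested and 5 were negative, where 7158 of all 13360 genes tested were, with a median of -0.079. Fn3k, the fructosamine 3-kinase gene, had a value of -0.10 (SE 0.10, adjusted p 0.879) and Glo1, the glyoxalase I gene, one of -0.08 (SE 0.08, adjusted p 0.884). With limma-voom Fn3k was at 0.0039 and Glo1 at 0.00048.

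Over the 13 libraries with group means subtracted, the genes whose log2 CPM followed that of Sord most closely were Top1mt (r 0.87), the mitochondrial topoisomerase I gene, Tmem106a (r 0.83), Rnaseh2b (r 0.81), which encodes a subunit of ribonuclease H2, A230107N01Rik (r 0.80) and Adprm (r 0.80). None of the pathway genes was among them, and r with Sord was 0.47 for Akr1b8 and -0.11 for Slc2a5. The correlation between Akr1b3 and Akr1b8 was 0.75 in the same measure. Akr1b3 and Akr1b8 also varied with Slc2a5, at r 0.67 and 0.62.

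In the genome, 17 annotated genes lie within 200000 bases of Sord, none of which overlaps it. Of these 5 were tested, 0 passed the adjusted limit, 1 had an unadjusted p under 0.05 (7.38% of all genes tested did), and their log2 fold changes lay between -0.16 and 0.23. The nearest tested genes were B2m, 81666 bases before Sord, at 0.21 (adjusted p 0.753), and Shf, 83552 bases after it, at -0.09 (adjusted p 0.945). The lowest was that of Eif3j1, at -0.16 (adjusted p 0.657). The nearest annotated genes of any kind were Rps12-ps10, 14358 bases before, and Duox2, 13907 bases after, which was at 0.113 CPM.

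Processing and the libraries used moved the genes to different degrees, as the plot of fold changes under every alternative shows. Sord lay between -0.47 and -0.33, with its direction fixed and a large size favoured by the choice of the gene. Akr1b3 lay between -0.49 and 0.03, Akr1b8 between -0.49 and -0.02, Khk between -0.24 and 0.18 and Slc2a5 between -1.53 and 1.18. For Akr1b3, Akr1b8 and Slc2a5 these ends are differences of mean log2 CPM within a range of library numbers, not fits. In that measure Slc2a5 differed by 0.09 over all 13 libraries. With the library number range as a covariate, Akr1b3 was at -0.20 and Slc2a5 at -0.60.

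**Figure D5:**
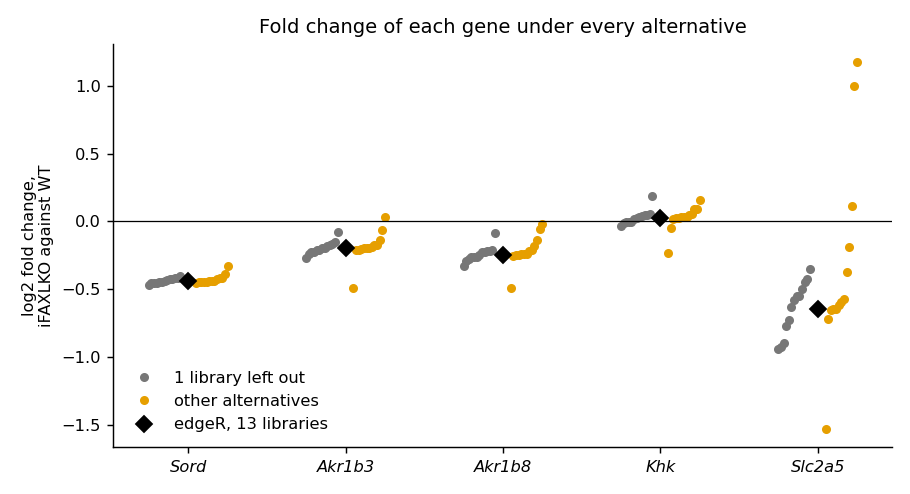
Log2 fold change of the libraries labelled iFAXLKO against WT (vertical axis) for the 5 tested genes in edgeR with all 13 libraries (diamonds), without 1 library at a time (grey) and under the other alternatives (orange). The orange points include differences of mean log2 CPM within each range of library numbers, which are not fits. Sord, which was chosen for its lower level in the libraries labelled iFAXLKO, holds the narrowest range, -0.47 to -0.33, and Slc2a5 the widest.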

How the data were processed

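The authors deposited 1 file of raw read counts per library, with whole-number counts for 42416 Ensembl identifiers, of which 42263 matched a symbol. The methods of the study name Trim Galore, hisat2, GRCm38 and ribosomal RNA depletion, whereas the submitters' processing notes name bcl2fastq 2.20, fastp 0.20.0, STAR 2.7.4a and GRCm38.p6 and the labels polyadenylated RNA; the counts do not settle which applies, and the counting tool and strand setting are not given in the sources used here.

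Samples were grouped by their labels. The members and lists were chosen with earlier results of these data known. Where over 1 CPM was reached in 5 or more libraries, genes were tested with edgeR 4.0.16 (quasi-likelihood F test, robust dispersions, TMM factors, R 4.3.3), 2-sided, with Benjamini-Hochberg adjustment over 13360 genes. The SE is the size of the log2 fold change divided by the square root of F, and intervals use the t quantile. CPM carry TMM factors, and log2 CPM a prior count of 2. A marker score is the mean log2 CPM of its genes. Exact permutation used all 1287 splits, and relations 100000 random orders, with scipy 1.17.1. Within-group pairs of libraries had a chi-square per degree of freedom of at least 15.26 (38 pairs), more than sampling noise alone gives. Each library was counted as 1 replicate by its label, and this value cannot show that the libraries come from separate mice. The p-values measure the spread between these libraries. The floor for a count of 0 was 3 counts and covers counting error only. The fits were checked on simulated counts.

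Named genes were the 6 members, Axl, per list any gene called and otherwise the 2 tested genes with the smallest p, the 5 genes most like Sord, and the nearest neighbours of Sord. Genes named in the text outside this rule (Adipoq, B630019A10Rik, Akr1b3 relatives in the sequence comparison, the abundant or undetected list genes such as Slc2a4, Hk2, Mlxipl, Aldoc and Slc5a3, Eif3j1, and the genes compared with Slc2a5) were chosen after their values were seen. One list gene under the filter is not reported here by name. Where a symbol had 2 identifiers (Aldoa), the one with more counts was used. Alternatives were DESeq2 1.42.0, limma-voom 3.58.1 with sample weights, upper quartile or RLE scaling, totals that leave out mitochondrial genes and the 10 most abundant ones, no filter, a replicate block, library number range, muscle and fibroblast scores as covariates, and each library left out. Differences of mean log2 CPM within each range of library numbers were set beside these. Replicates 1 to 5 without a block were added after seeing the data.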

Additional observations from a re-analysis of the deposited data

Results flagged for a closer look

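Of 10 groups of values examined, 1 held a library far from the others by Dixon's criterion, which chance meets in about 1 of 20 groups. In WT 2, Khk had 17.3 CPM, whereas the next WT library had 12.1 CPM, a gap of 0.735 of the range against a critical value of 0.71 for 5 libraries. WT 2 was also the highest library for Akr1b3, Akr1b8 and Sord, and for the sum of brown adipocyte markers. Without it, the log2 fold change of Khk was 0.18 (adjusted p 0.472, edgeR).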

How the results depend on the processing

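No list gene and none of Akr1b3, Akr1b8, Khk and Slc2a5 passed the adjusted limit in edgeR, nor under any of the alternatives run with a test. Sord lay between -0.47 and -0.33, with a direction fixed and a large size favoured by how it was chosen. The count of genes passing the limit over all genes, 17, was 14 to 19 when 1 library was left out, 67 with DESeq2 and 8 with the fibroblast score as a covariate. With the fibroblast score, Sord was at -0.33, Khk at -0.24, Mlx at 0.028 and Fn3k at 0.022. Within the lower and upper ranges of library numbers, Akr1b3 was at -0.49 and 0.034, Khk at -0.051 and 0.09, and Slc2a5 at -1.53 and 1.18. These values for the ranges are differences of mean log2 CPM, not fits. With limma-voom, Slc2a5 was at 1.00, Tpi1 at 0.027, Fn3k at 0.0039 and Glo1 at 0.00048. Without 1 library, Khk ranged from -0.031 to 0.18, Tpi1 from -0.12 to 0.030 and Glo1 from -0.11 to 0.015. The cause of these changes was not tested.

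The correlations of same-numbered libraries were 0.392, 0.422, 0.188, 0.181 and -0.614, and only numbers 2 and 3 correlated best with their own number. These few values cannot decide whether the replicate numbers pair the libraries. With the replicate block over replicates 1 to 5 the count was 7, against 12 for the same libraries without the block (chosen after seeing the data). Under the block Slc2a5 was at 0.12, Slc2a12 at -0.0030 and Adpgk at -0.034 (-0.035 without the block), while Sord was at -0.45 either way.

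With 8 and 5 libraries the intervals of Akr1b3 and Akr1b8 include a decrease as large as the value of Sord, and that of Slc2a5, -2.24 to 0.94, sets no useful limit on its change. For Akr1b7, at no more than 4 counts in a library, a difference was not detectable at this depth.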
